A study of Mus musculus with 40 samples.

Results

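The 9 genes described here carry inhibitory transmission by glycine and gamma-aminobutyric acid (GABA): the glycine receptor subunits Glra1, Glra2, Glra3 and Glrb, the glycine transporters Slc6a5 and Slc6a9, the vesicular transporter Slc32a1, and the GABA-synthesizing enzymes Gad1 and Gad2. They were taken by symbol from the gene tables, were chosen for their function rather than for a measured value, and make up 9 of 40213 symbols. Their transcripts were counted in 40 mRNA libraries of male C57BL/6N mice. The mice were obtained at 8 weeks of age and sampled after the treatments below. The libraries were 20 of midbrain and 20 of spinal cord, with 4 replicates in each of 5 treatment groups per tissue. Con mice received saline in place of MPTP and saline at GB34, an acupoint below the knee. The 4 other groups received MPTP, a toxin of dopaminergic neurons used to model Parkinson's disease, at 20 mg/kg in 4 intraperitoneal injections spaced 2 h apart. MPTP-Veh mice then had saline at GB34. MPTP-SU mice had SUEHP, a herbal and deer antler pharmacopuncture solution, at GB34 on both sides in 4 injections over 2 weeks. MPTP-SU+S mice were given SUEHP and 3 mg/kg of the CB1 antagonist SR141716A (written SR141714A in the sample labels), and MPTP-SU+T mice SUEHP and 5 mg/kg of the PPARγ inhibitor T0070907. The model is an acute toxin lesion, and the bulk tissue holds all cell types of the dissected piece. Nothing in the sources used here states that the replicates of a group are separate animals, so p-values measure the spread between these samples.

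Glycine and GABA both open chloride channels that quiet the receiving neuron. Glycine is the main fast inhibitory transmitter of spinal cord and brainstem circuits, whereas GABA serves inhibitory neurons throughout the brain. A glycine receptor is built from alpha subunits, which bind glycine, and the beta subunit, which is tethered to the postsynaptic scaffold protein gephyrin. Slc6a5 (GlyT2) refills glycinergic terminals and is the standard marker of glycinergic neurons. Slc6a9 (GlyT1), found mainly on astrocytes, clears glycine from the synapse, and Slc32a1 (VGAT) loads both transmitters into vesicles.

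The sequences shown first lie just upstream of 3 genes on opposite sides of the difference between the tissues: Slc6a5, far higher in the spinal cord, and Gad1 and Gad2, higher in the midbrain. They are the 250 bases before an annotated start, 5′ to 3′ on the gene's strand, from RefSeq (GRCm38.p6). That build is not the GRCm39 named in the submitters' processing notes, so the coordinates serve only to locate the sequence. Capitals mark CpG dinucleotides.
Slc6a5, chr7:49910049-49910298, plus strand: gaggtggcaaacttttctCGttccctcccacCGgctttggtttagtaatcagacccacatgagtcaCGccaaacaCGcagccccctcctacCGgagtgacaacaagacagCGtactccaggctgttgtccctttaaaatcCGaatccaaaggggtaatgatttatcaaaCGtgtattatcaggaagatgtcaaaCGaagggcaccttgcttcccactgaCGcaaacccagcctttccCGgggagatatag
Gad1, chr2:70561879-70562128, plus strand: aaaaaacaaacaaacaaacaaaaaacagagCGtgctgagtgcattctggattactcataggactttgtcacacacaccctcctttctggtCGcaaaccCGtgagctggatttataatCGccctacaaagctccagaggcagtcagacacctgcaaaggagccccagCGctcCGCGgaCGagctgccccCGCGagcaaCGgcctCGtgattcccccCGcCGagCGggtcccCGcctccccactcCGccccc
Gad2, chr2:22622077-22622326, plus strand: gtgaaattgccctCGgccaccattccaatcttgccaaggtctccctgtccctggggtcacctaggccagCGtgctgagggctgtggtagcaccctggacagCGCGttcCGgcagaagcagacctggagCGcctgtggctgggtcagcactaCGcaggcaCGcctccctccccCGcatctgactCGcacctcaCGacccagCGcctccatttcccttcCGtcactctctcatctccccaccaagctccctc
The Slc6a5 stretch held 11 CpG dinucleotides, Gad1 17 and Gad2 13, against a median of 6 over 32851 mouse promoters of the same length. As many as 11 were found in 35.6% of all promoters, as many as 17 in 23.5% and as many as 13 in 31.5%. The motif TATAAA, searched on both strands, was present in the Gad1 stretch and in neither of the others, beside 12.4% of all promoters. AGATAA was found in none of these 3 stretches, against 9.99% of all promoters. Likewise none held TAATTA, a palindrome present in 4.84%. The palindrome CAGCTG was also in none, where 13% of promoters had it. A second annotated start of Slc6a5, not printed, had 7 CpG dinucleotides upstream, near the median. The RefSeq table held entries for 8 of the 9 genes, the exception being Glra1.

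The libraries held 11958200 to 16639823 counts (midbrain) and 14642808 to 16615378 counts (spinal cord). Values are given as counts per 1000000 (CPM) on library sizes adjusted by TMM over all 40 libraries. The tissue labels fitted the markers: 6 Hox genes of spinal cord position summed to 304–342 CPM in the spinal cord and to 0–1.49 CPM in the midbrain, and the midbrain dopaminergic list of 6 genes to 55.1–232 CPM in midbrain libraries beside 23.9–31.3 CPM in spinal cord. In that dopaminergic list Lmx1b alone ran the other way, with a median of 20.9 CPM in spinal cord and 6.25 CPM in midbrain. Distances between replicates were read as multiples of the sampling variance. Midbrain MPTP-Veh replicate 4 stood furthest from its group, at 289 to 327. Other libraries also lay far off. Spinal cord MPTP-SU+T replicate 1 was at 114 to 124 from replicates 2, 3 and 4, which were at 4.57 to 4.84 among themselves. Spinal cord Con replicate 2 was at 36.2 to 92.8 from the rest of its group, and midbrain MPTP-SU+T replicate 1 at 65.7 to 100. In midbrain MPTP-Veh replicate 4, mitochondrially encoded transcripts summed to 15128 CPM, against 107380–175558 CPM in the other 19 midbrain libraries, and 5 oligodendrocyte genes to 34573 CPM, against 9396–13437 CPM. The midbrain libraries also varied in markers of neighbouring regions, with the thalamic list between 140 and 1018 CPM and the hypothalamic list between 0.722 and 435 CPM. The cortex and hippocampus list ran highest in Con, at 15.1–103 CPM. It summed to 4.48–18.8 CPM in MPTP-Veh, 4.12–31.7 CPM in MPTP-SU, 5.30–7.15 CPM in MPTP-SU+S and 4.40–14.3 CPM in MPTP-SU+T. The part of neighbouring tissue in the comparisons with midbrain Con was not tested. The tests that use midbrain MPTP-Veh are therefore given with and without replicate 4. In these bulk samples, fewer cells of a type and less RNA per cell cannot be told apart.

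The spinal cord carried far more of the glycinergic marker than the midbrain, and the midbrain more of the GABA-synthesizing enzymes. In the Con groups, 6 of the 9 genes passed the test between the tissues (edgeR quasi-likelihood test, Benjamini-Hochberg adjusted p below 0.05 and a fold change above 1.5), where 16.4% of the 17426 genes tested did. Slc6a5, Glra1 and Slc6a9 were higher in the spinal cord, as were 9.02% of all genes, and Gad1, Gad2 and Glra2 were lower, as were 7.41%. The median log2 difference, spinal cord minus midbrain, was 0.06 over the 9 genes and −0.02 over all genes tested. The 4 Con libraries of one tissue lay entirely on one side of the other for the same 6 genes, and for 37.3% of all genes.

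**Figure D1:**
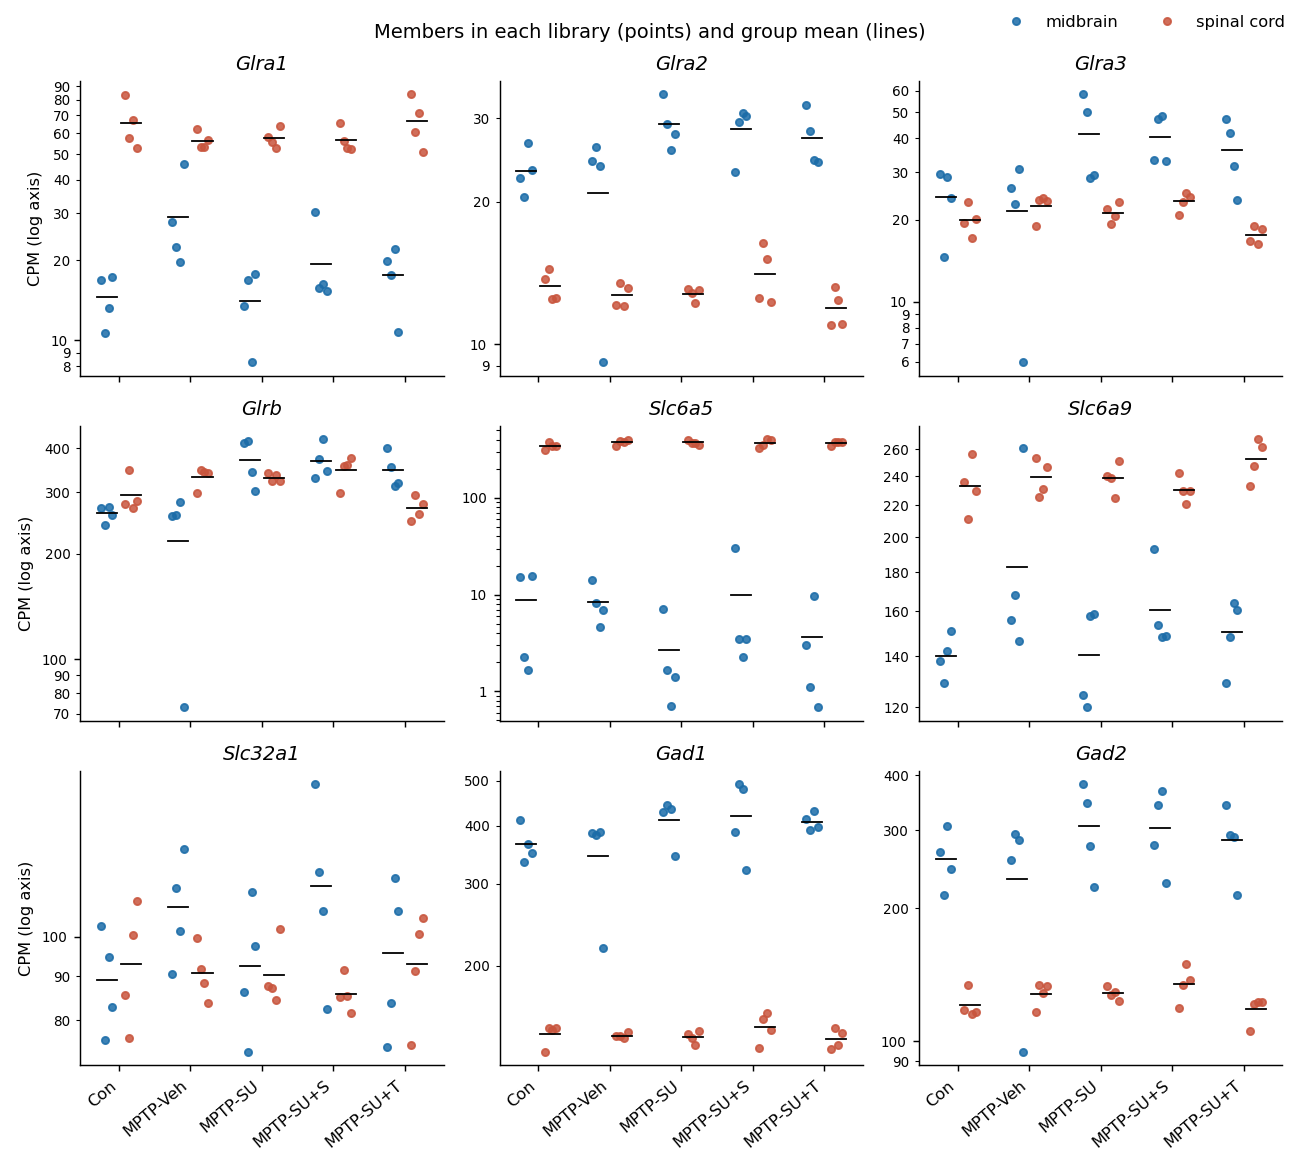
Each panel shows 1 gene as TMM-adjusted CPM on a log axis in every library, by treatment group, with midbrain in blue and spinal cord in red and the group mean as a black line (n = 4). Slc6a5 lies between 312 and 404 CPM in the spinal cord and at or below 30.5 CPM in the midbrain. The lowest midbrain points of Glra2, Glra3, Glrb, Gad1 and Gad2 all belong to MPTP-Veh replicate 4.

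Slc6a5 gave the widest gap. Con replicates 1 to 4 read 15.4, 2.28, 1.65 and 15.8 CPM in midbrain and 312, 381, 346 and 349 CPM in spinal cord. The tissues were thus far apart, while the midbrain replicates fell into a high pair and a low pair. The log2 difference was 5.31 (SE 0.70, adjusted p = 3.78e-07), a 39.6-fold higher level in the spinal cord. Over the 5 groups it was 5.96 (SE 0.33, adjusted p = 8.04e-17).

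Slc6a9 differed far less. It read 138, 129, 142 and 151 CPM in the Con midbrain and 236, 211, 256 and 229 CPM in the Con spinal cord, without overlap. The log2 difference was 0.74 (SE 0.12, adjusted p = 1.03e-05). The 5 astrocyte markers summed to 909–1438 CPM in midbrain and 1794–2671 CPM in spinal cord, but did not all run the same way. Median levels were higher in the spinal cord for Gfap (1258 against 257 CPM), Aqp4 (739 against 255 CPM) and Gja1 (304 against 240 CPM). They were lower there for Slc1a3 (108 against 254 CPM) and about level for Aldh1l1 (46.0 against 48.4 CPM). The part of astrocytes in the Slc6a9 difference was not tested. Slc32a1, which serves glycinergic and GABAergic terminals alike, averaged 89.1 ± 12.1 CPM in midbrain and 93.1 ± 15 CPM in spinal cord (SD, n = 4), a log2 difference of 0.06 (SE 0.15, adjusted p = 0.8) with overlapping groups.

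The 3 alpha subunits were divided differently between the tissues. Glra1, the alpha subunit of adult spinal and brainstem receptors, read 16.8, 10.7, 13.3 and 17.3 CPM in the Con midbrain and 83.7, 57.4, 67.3 and 52.5 CPM in the Con spinal cord. Every spinal cord value was above every midbrain value, and the log2 difference was 2.17 (SE 0.25, adjusted p = 1.07e-08). Glra2, the alpha subunit known chiefly from immature neurons, ran the other way, with 22.5, 20.4, 26.6 and 23.4 CPM in midbrain and 13.7, 14.4, 12.4 and 12.5 CPM in spinal cord, a log2 difference of −0.81 (SE 0.17, adjusted p = 0.000328). Glra3, known from the superficial dorsal horn, averaged 24.3 ± 6.88 CPM and 20.0 ± 2.53 CPM, and its difference of −0.28 (SE 0.27, adjusted p = 0.487) did not pass. It passed over the 5 groups at −0.60 (SE 0.12, adjusted p = 5.63e-05), just past the 1.5-fold limit of 0.585. Glrb, the beta subunit common to all of these receptors, was at 261 ± 14.7 CPM and 294 ± 35.4 CPM, a log2 difference of 0.17 (SE 0.20, adjusted p = 0.551). Glra4, the remaining alpha subunit gene, stayed at or below 1.15 CPM in every library.

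Levels were compared between genes per kilobase of the longest coding transcript (GENCODE M21). On that scale Glra1 made up 78.5% ± 3.94 of the summed level of the 3 alpha subunits in the spinal cord of Con mice and 35.2% ± 4.11 in the midbrain (SD, n = 4), while Glra2 made up 12.4% ± 1.86 and 43.4% ± 5.03. The groups did not overlap for either share, and the exact two-sided permutation test gave its smallest possible p of 0.0286 for both (adjusted p = 0.104 over 40 comparisons of such ratios). Glrb exceeded the 3 alpha subunits together in both tissues: their sum was 0.199 ± 0.0225 of the Glrb level in midbrain and 0.361 ± 0.0822 in spinal cord.

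The order of levels per kilobase in the Con midbrain ran from Gad1 (109 CPM per kilobase) and Glrb (86.1) to Gad2 (45), Slc6a9 (40.2) and Slc32a1 (31.9), then Glra2 (7.37), Glra1 (6.07), Glra3 (3.73) and Slc6a5 (1.24). Gad2 and Slc6a9 overlapped between replicates there, as did Glra2 and Glra1, and Glra1 and Glra3. In the Con spinal cord the order was Glrb (97.2), Slc6a9 (67.0), Slc6a5 (49.1), Gad1 (42.6), Slc32a1 (33.3), Glra1 (27.3), Gad2 (21.0), Glra2 (4.21) and Glra3 (3.08). Neighbours from Gad1 to Gad2 overlapped between replicates. Slc6a5 thus stood last of the 9 in the midbrain and in the third place in the spinal cord. With the median coding transcript as length, Slc6a9 came above Gad2 in the midbrain and Gad1 above Slc6a5 in the spinal cord.

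Gad1 and Gad2, which make GABA from glutamate in the cell body and at terminals respectively, were both lower in the spinal cord. Gad1 read 412, 334, 366 and 349 CPM in the Con midbrain and 131, 147, 146 and 147 CPM in the Con spinal cord, a log2 difference of −1.35 (SE 0.12, adjusted p = 8.08e-11). Gad2 read 267, 214, 307 and 245 CPM against 118, 134, 115 and 116 CPM, a difference of −1.10 (SE 0.20, adjusted p = 5.59e-05). No Con library of one tissue entered the range of the other for either gene. Per kilobase, the Gad1 level was 2.45 ± 0.288 times that of Gad2 in midbrain and 2.03 ± 0.16 times in spinal cord, and these ratios overlapped (exact permutation p = 0.0857, adjusted p = 0.229 over the 40 comparisons, n = 4).

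**Figure D2:**
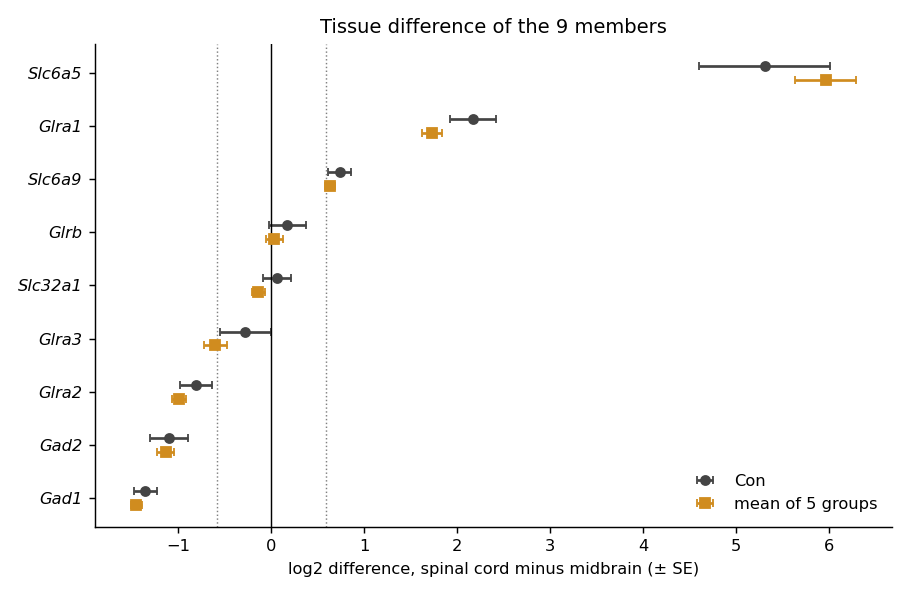
Points give the log2 difference in level, spinal cord minus midbrain, of each gene in the Con groups (circles) and over the mean of the 5 groups (squares), with bars for the SE and dotted lines at the 1.5-fold limit. Slc6a5 stands at 5.31 and 5.96, Glra1 at 2.17 and 1.73, and Gad1 at −1.35 and −1.45, whereas Glrb and Slc32a1 lie near 0.

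Over all treatments, 20 libraries against 20, the tissues did not overlap for Slc6a5, Glra1 and Gad1, 3 of the 9 genes, where 9.08% of all genes separated. Without midbrain MPTP-Veh replicate 4 the number was 6 of 9, with Glra2, Slc6a9 and Gad2 added, beside 12% of all genes. The removal of that library was chosen after the data had been seen. Over the mean of the 5 groups 7 genes passed the test, against 22% of all genes. Glra1 (1.73), Slc6a5 (5.96) and Slc6a9 (0.63) were higher in the spinal cord, as were 12.2% of all genes, and Glra2 (−0.99), Glra3 (−0.60), Gad1 (−1.45) and Gad2 (−1.13) lower, as were 9.78%, in log2 units. Glra3 fell inside the 1.5-fold limit when 1 of 12 single libraries was left out, at −0.58 to −0.55: midbrain Con replicates 1 and 3, MPTP-Veh 1 and 3, MPTP-SU 1 and 2, MPTP-SU+S 2 and 3 and MPTP-SU+T 1 and 2, and spinal cord Con replicate 3 and MPTP-Veh replicate 1. Each single library left out kept the other 6 past the test.

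Other genes of inhibitory transmission, from 6 lists of 33 genes in all, were read in the same Con comparison. In it 16.4% of the 17426 genes tested passed, the share to set beside each list. Of 7 tested transcription factors of inhibitory neurons, 1 was higher and 4 were lower in the spinal cord. Pax2, a factor of dorsal horn inhibitory neurons, was the higher one, at 1.06 CPM in midbrain and 31.3 CPM in spinal cord (log2 4.88, SE 0.47). Tal1 (−2.20) and Gata3 (−4.25), factors of midbrain GABA neurons, were among the lower ones. Of 8 postsynaptic scaffold genes, Iqsec3 was higher (0.82). The chloride importer Slc12a2 was higher (0.92), as 1 of 4 chloride transporters. The GABA transporters Slc6a12 and Slc6a13 were lower (−2.41 and −1.84), as 2 of 6 genes of GABA uptake and breakdown, and Gldc of the glycine cleavage system was lower (−1.73), as 1 of 6.

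Slc6a5 was also the member that varied most within a tissue. Its coefficient of variation over 20 libraries was 111% in midbrain and 7.03% in spinal cord. In the midbrain it rested on 12 to 445 counts per library. The MPTP-Veh replicates read 14.1, 8.2, 4.6 and 7.01 CPM, the MPTP-SU replicates 7.06, 1.65, 0.7 and 1.4 CPM, the MPTP-SU+S replicates 30.5, 3.51, 2.26 and 3.47 CPM, and the MPTP-SU+T replicates 2.98, 1.1, 9.68 and 0.686 CPM. High and low libraries occurred in the same group, and all 5 midbrain groups overlapped. Markers of hindbrain position also varied: 6 such genes summed to 3.97 CPM in the library with the highest Slc6a5 (MPTP-SU+S replicate 1) and to 3.68 CPM in Con replicate 4, the second highest, against 0, 0 and 0.0736 CPM in MPTP-SU replicates 2, 3 and 4. MPTP-Veh replicate 4 had the highest hindbrain sum, 4.11 CPM, with 7.01 CPM of Slc6a5. In the spinal cord the same list summed to 49.0–59.2 CPM. The part of hindbrain tissue in the midbrain values of Slc6a5 was not tested.

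**Figure D3:**
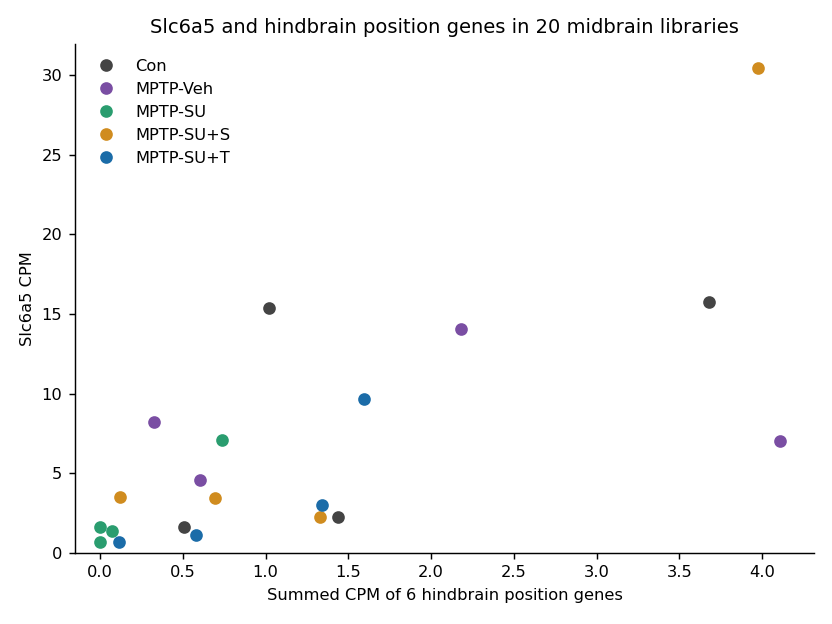
Each point is 1 of the 20 midbrain libraries, with the summed CPM of 6 hindbrain position genes on the horizontal axis, the CPM of Slc6a5 on the vertical axis and colours for the treatment groups. The point at 30.5 CPM (MPTP-SU+S replicate 1) has a hindbrain sum of 3.97 CPM, and 3 of the 4 MPTP-SU points lie near the origin.

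Genes that tracked Slc6a5 in the midbrain were ranked by Pearson correlation of log2 CPM over 20 libraries, after the group means had been subtracted. All genes of a library share its tissue piece and depth, which differed between libraries. The 5 highest of 16628 were Acan (0.899), a proteoglycan of perineuronal nets, the homeobox factor Lhx4 (0.88), Lgi2 (0.856), the paired-box factor Pax5 (0.856) and the homeobox factor Irx2 (0.852). Glra1 stood at rank 81 with 0.647. Without MPTP-Veh replicate 4, Acan, Lhx4, Lgi2 and Irx2 were again among the 5, and Glra1 stood at rank 52 with 0.754. In the spinal cord the 5 were Napb, Usp32, Nrcam, Cntn1 and Ubr1 (0.924–0.938), and Gad2 stood at rank 46 with 0.871. For Slc32a1 the 5 were Kcnc1, Tfip11, Grip2, Rps19 and Tmem59l in the midbrain (0.861–0.908) and Scrt1, Vps72, Akt1, Ywhag and Clstn1 in the spinal cord (0.924–0.95). Without MPTP-Veh replicate 4, 1 of the 5 midbrain genes, Kcnc1, was again among the 5 nearest to Slc32a1 (0.908). Slc6a9 was the member nearest to Slc32a1 in both tissues, at 0.711 (midbrain) and 0.63 (spinal cord).

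The first treatment comparison asked what MPTP alone did to these genes. In the midbrain, MPTP-Veh against Con, 0 of the 9 genes passed the test, beside 0.018% of 16629 genes (edgeR). At an unadjusted p under 0.05 there were 2, Glra1 and Slc6a9, where 23.6% of all genes were, so that count is at the background. DESeq2 called 1, Glra1, and 2.68% of all genes. Glra1 read 27.9, 22.4, 19.7 and 45.8 CPM in MPTP-Veh against 16.8, 10.7, 13.3 and 17.3 CPM in Con. All 4 MPTP-Veh libraries were above all 4 Con libraries, as was true of no other member, where 12.4% of all genes did not overlap. The log2 change was 1.00 (SE 0.31, adjusted p = 0.132, 0.0421 to 0.505 over 15 other settings), and the exact permutation test gave p = 0.0286, the smallest that 4 against 4 allows. DESeq2 gave an adjusted p of 0.0421, and leaving out MPTP-Veh replicate 3 gave 0.0453 at a log2 change of 1.14. Leaving out replicate 4, the library that stood apart and read 45.8 CPM, gave 0.69 (adjusted p = 0.367), with a MPTP-Veh mean of 23.3 CPM against 14.5 CPM in Con. Slc6a9 stood at 0.39 (SE 0.16, adjusted p = 0.165), and at 0.17 (adjusted p = 0.603) without replicate 4. The 7 other members lay between −0.26 and 0.29, and between 0.02 and 0.20 without it.

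Within the alpha subunits, Glra1 made up 54.4% ± 19.7 of the summed level per kilobase in MPTP-Veh, with replicate 4 at 83.4% and the 3 others at 40.1% to 49.8%, against 35.2% ± 4.11 in Con and 27.3% ± 6.69 in MPTP-SU. MPTP-Veh did not overlap either group (exact permutation p = 0.0286 for each, adjusted p = 0.104 over 40 comparisons). A joint list of markers of the superior colliculus and of midbrain GABA neurons also varied. The list of Gata3, Tal1, Sox14 and Pou4f1 summed to 198 CPM in MPTP-Veh replicate 4 and to 66.0–78.0 CPM in the 3 other MPTP-Veh libraries. It summed to 27.0–71.1 CPM in Con, which overlaps those 3, and to 37.1–60.1 CPM in MPTP-SU. The list of the excitatory neuron genes Slc17a6, Slc17a7 and Slc17a8 summed to 153–373 CPM in MPTP-Veh. That was below both Con (376–569 CPM) and MPTP-SU (459–560 CPM), without overlap. MPTP-SU+S (327–521 CPM) and MPTP-SU+T (371–577 CPM) overlapped MPTP-Veh. With MPTP-Veh replicate 4 left out, the lowest sum of any midbrain library was 327 CPM, in MPTP-SU+S. The part of these lists in the Glra1 values was not tested.

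The second comparison, MPTP-SU against MPTP-Veh, set SUEHP against saline at the acupoint after MPTP. In the midbrain 2 of the 9 genes passed, 1 in each direction, beside 13.3% of all genes, 4.26% that rose and 9% that fell. A count of 2 in 9 is near that background and is no result about the members as a group. On library size alone, without TMM, 15.9% of the called genes rose, against 32.1% with TMM. The median log2 fold change was 0.26 over the 9 and 0.00 over all genes tested. Glra1 fell: MPTP-SU libraries read 13.5, 16.9, 8.29 and 17.8 CPM, a mean of 14.1 ± 4.31 CPM, against 28.9 ± 11.7 CPM for MPTP-Veh (SD, n = 4). The log2 change was −1.04 (SE 0.31, adjusted p = 0.029). Glrb rose, from 256, 257, 281 and 73.0 CPM to 416, 421, 342 and 302 CPM, a log2 change of 0.77 (SE 0.26, adjusted p = 0.0457). The groups did not overlap for these 2 genes, as for 21.8% of all genes.

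The Glra1 and Glrb calls each rested on single libraries. When the library that stood apart, MPTP-Veh replicate 4, was left out, Glrb was 0.48 higher (adjusted p = 0.00768), within the 1.5-fold limit, and Glra1 was at −0.73 (adjusted p = 0.109). Without MPTP-SU replicate 1, 2 or 3 the adjusted p of Glra1 was 0.0656, 0.0578 and 0.0778 and that of Glrb 0.101, 0.113 and 0.0703. With the 8 libraries of the comparison alone they were 0.235 and 0.266. The Glrb call also ended on library size alone, without the low-count filter and with limma-voom, at adjusted p of 0.0804, 0.0717 and 0.00258, the last with a change under 1.5-fold. The 3 other MPTP-Veh libraries of Glrb, at 256 to 281 CPM, were still below the lowest MPTP-SU library, at 302 CPM.

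**Figure D4:**
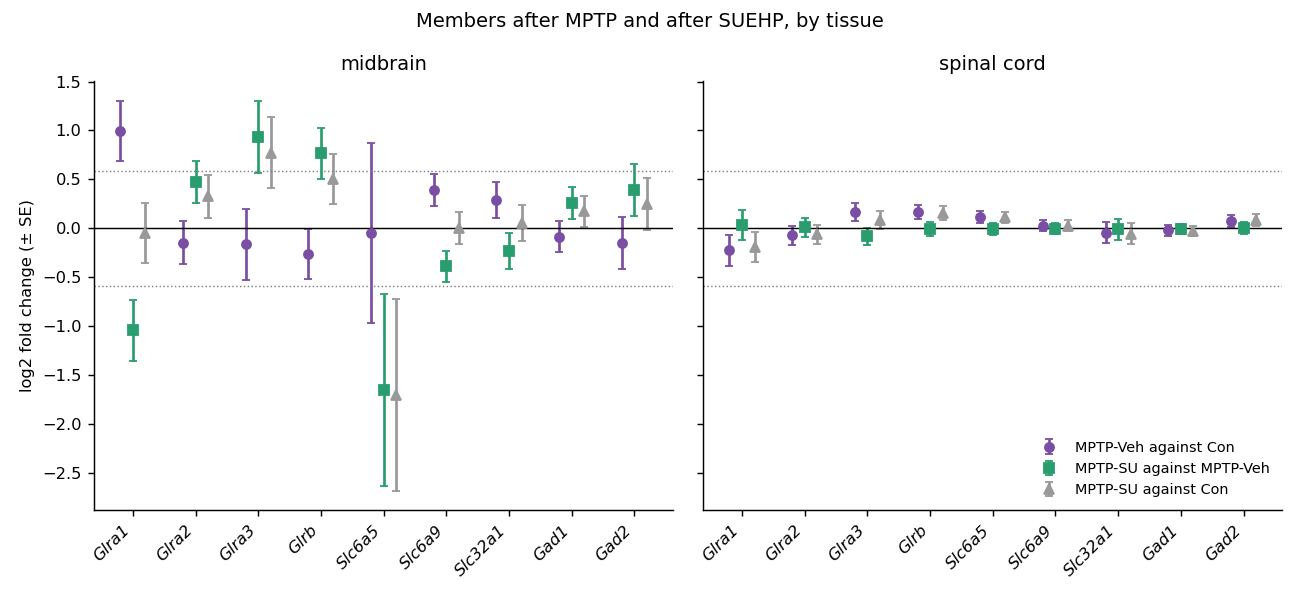
Points give the log2 fold change of each gene with its SE in the midbrain (left) and spinal cord (right) for MPTP-Veh against Con (circles), MPTP-SU against MPTP-Veh (squares) and MPTP-SU against Con (triangles), with dotted lines at the 1.5-fold limit. In the midbrain Glra1 stands at 1.00, −1.04 and −0.04. In the spinal cord the 9 genes lie between −0.23 and 0.17.

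The remaining 7 members did not pass in the midbrain. Glra3 read 58.1, 50.0, 28.5 and 29.4 CPM in MPTP-SU and 26.3, 23.0, 30.8 and 5.98 CPM in MPTP-Veh, overlapping, at 0.94 (SE 0.37, adjusted p = 0.0713). It passed with DESeq2 (adjusted p = 0.0389), and without MPTP-Veh replicate 3 (1.16, adjusted p = 0.0382). Without MPTP-Veh replicate 4, whose 5.98 CPM was the lowest value, it was at 0.63 (adjusted p = 0.178). Glra2 was at 0.47 (SE 0.22, adjusted p = 0.115), Gad2 at 0.39 (SE 0.27, adjusted p = 0.273) and Gad1 at 0.26 (SE 0.16, adjusted p = 0.234). Slc6a9 was at −0.39 (SE 0.16, adjusted p = 0.0844), Slc32a1 at −0.23 (SE 0.18, adjusted p = 0.35) and Slc6a5 at −1.65 (SE 0.98, adjusted p = 0.212). The SE of Slc6a5, which rested on the lowest counts, was the widest of the 9. Without MPTP-Veh replicate 4, Glra2 (0.23), Gad2 (0.13), Gad1 (0.10), Slc6a9 (−0.16) and Slc32a1 (−0.14) were closer to 0, and Slc6a5 was at −1.72.

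Genes around the inhibitory synapse were called in both directions in that comparison, most of them only with MPTP-Veh replicate 4 included. Of the 8 scaffold genes, Gphn, which encodes gephyrin, rose (log2 0.81, SE 0.27, adjusted p = 0.0432), and Lhfpl4 and Gabarap, which serve the placing and transport of GABA receptors, fell by 1.28 and 1.04. Of 7 transcription factors tested, Lhx5, Gata2 and Gata3 fell by 1.38, 0.85 and 1.85, and of 6 genes of GABA uptake and breakdown Slc6a12 fell by 1.59. Without MPTP-Veh replicate 4, 1 of these 7 calls was left, Gata3 (−1.07, adjusted p = 0.0468). Calls over all genes also fell, from 2206 of 16629 tested to 548 of 16831. Gphn (0.50), Lhfpl4 (−0.38), Gabarap (−0.38) and Gata2 (−0.57) were then within the 1.5-fold limit, and Lhx5 (−0.63, adjusted p = 0.107) and Slc6a12 (−0.98, adjusted p = 0.171) did not pass. The lists of glycine synthesis and cleavage and of chloride transport had 0 of 6 and 0 of 4 called by edgeR. The thalamic list summed to 140–482 CPM without SUEHP (MPTP-Veh) and 287–835 CPM with it (MPTP-SU), and its part in these values was not tested.

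Against Con, the midbrain of MPTP-SU mice had 0 of 9 members called, beside 0.728% of all genes. At an unadjusted p under 0.05 there was 1, where 16% of all genes were, Glra3 at 0.77 (SE 0.36, adjusted p = 0.306), which limma-voom with sample weights called (0.82, adjusted p = 0.0199) and DESeq2 did not. This comparison shares its groups with the previous 2. Glra1 overlapped between MPTP-SU and Con, at −0.04 (SE 0.31, adjusted p = 0.969). Glrb was at 0.50 (SE 0.26, adjusted p = 0.352), and its MPTP-SU libraries, at 302 to 421 CPM, all lay above the Con libraries, at 241 to 273 CPM, where 19.6% of all genes did not overlap.

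The antagonist groups asked whether CB1 or PPARγ blockade altered the SUEHP state. In the midbrain, 0 of 9 members and 0% of all genes passed by edgeR in MPTP-SU+S or MPTP-SU+T against MPTP-SU, and 0 members had an unadjusted p under 0.05 in either, where 1.64% and 1.69% of all genes had. DESeq2 called 0 members in both. Glrb, the member that had risen, read 330, 374, 425 and 344 CPM in MPTP-SU+S and 401, 353, 313 and 318 CPM in MPTP-SU+T, with log2 changes of −0.01 (SE 0.26) and −0.10 (SE 0.26). Glra1 stood at 0.46 (SE 0.31) and 0.32 (SE 0.31) in those comparisons. The groups of each overlapped for all 9 members, where 2.15% and 1.97% of all genes did not overlap. The widest log2 fold change was that of Slc6a5 with the CB1 antagonist, 1.88 (SE 0.98, unadjusted p = 0.0707 by edgeR), carried by replicate 1 at 30.5 CPM.

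In the spinal cord, no treatment comparison called a member. MPTP-Veh against Con, MPTP-SU against MPTP-Veh, MPTP-SU against Con, and MPTP-SU+S against MPTP-SU each had 0 members called by edgeR, beside 0% of 16682 genes, and MPTP-SU+T against MPTP-SU had 0 beside 0.018%. DESeq2 called 0 members in each of the 5. At an unadjusted p under 0.05 there were 1, 0, 1, 0 and 2 members, where 12.4%, 3.51%, 8.82%, 5.32% and 11.9% of all genes were. In the first 4 of these comparisons the groups overlapped for all 9 members, where 4.63%, 3.31%, 3.38% and 4.12% of all genes did not. For SUEHP after MPTP the 9 log2 fold changes lay between −0.08 (Glra3) and 0.03 (Glra1), with SEs of 0.05 to 0.15. Slc6a5, the glycinergic marker, read 401, 374, 374 and 357 CPM with SUEHP and 342, 391, 383 and 399 CPM without it, which overlap.

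Glrb was the member with the smallest unadjusted p after MPTP in the spinal cord, 0.0305 by edgeR, at a log2 change of 0.16 (SE 0.07, adjusted p = 0.349). With the PPARγ inhibitor, Glrb read 248, 295, 260 and 278 CPM against 340, 323, 336 and 322 CPM in MPTP-SU. The 4 libraries were all below those of MPTP-SU, at −0.28 log2 units (SE 0.07, adjusted p = 0.15), which is under 1.5-fold. Glra3, at −0.26 (SE 0.09, adjusted p = 0.25), and Gad2, at −0.12 (SE 0.06, adjusted p = 0.457), also did not overlap. These were 3 of 9 members, beside 7.91% of all genes. MPTP-SU+T replicate 1, the library far from its group, held the lowest Glrb (248 CPM) and Gad2 (106 CPM) of the spinal cord. The lowest Glra3 (16.4 CPM) was in MPTP-SU+T replicate 3.

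Whether the treatments acted differently in the 2 tissues was tested directly. For MPTP, 1 of 9 members passed, Glra1, beside 2.37% of all genes, 1.58% in its direction. Its change in the spinal cord minus its change in the midbrain was −1.20 log2 units (SE 0.34, adjusted p = 0.0485). For SUEHP after MPTP, Glra1 again passed alone, at 1.07 (SE 0.34, adjusted p = 0.0297), beside 12.1% of all genes, 8.13% in its direction. On library size alone 82.8% of the genes called there were higher, against 67% with TMM. Glrb was at −0.78 (SE 0.28, adjusted p = 0.05004) and Glra3 at −1.02 (SE 0.38, adjusted p = 0.0615). Both tests share the MPTP-Veh libraries. Without midbrain MPTP-Veh replicate 4 Glra1 was at −0.91 (adjusted p = 0.141) for MPTP and 0.75 (adjusted p = 0.147) for SUEHP. For SUEHP, Glrb was then at −0.50 (adjusted p = 0.0123), within the 1.5-fold limit, and Glra3 at −0.73 (adjusted p = 0.126).

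The Glra1 differences also lost the call without other single libraries. For MPTP the adjusted p was 0.0562 to 0.115 without midbrain Con replicate 1, 2, 3 or 4, spinal cord Con replicate 1, 3 or 4, or spinal cord MPTP-Veh replicate 1, 2, 3 or 4. For SUEHP it was 0.0502 to 0.0711 without midbrain MPTP-SU replicate 1 or 3, spinal cord MPTP-Veh replicate 2 or 3, or spinal cord MPTP-SU replicate 4. Conversely, Glrb passed for SUEHP without midbrain MPTP-Veh replicate 1, 2 or 3, midbrain MPTP-SU replicate 4 or spinal cord MPTP-Veh replicate 1 (adjusted p 0.014 to 0.0445). Glra3 passed without midbrain MPTP-Veh replicate 1, 2 or 3 or midbrain MPTP-SU replicate 3 or 4 (adjusted p 0.0178 to 0.0495).

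Within groups, the members split into sets that moved together from library to library. In the midbrain Glra2, Glra3, Glrb, Gad1 and Gad2 were correlated with each other at 0.71 to 0.95 (Pearson r of log2 CPM after subtracting group means, 20 libraries), and each ran against Slc6a9, at −0.87 to −0.65. Part of that rested on MPTP-Veh replicate 4: without it Slc6a9 was at −0.24 with Gad1, −0.49 with Gad2 and −0.78 to −0.58 with the 3 receptor subunits, and Glra2 and Gad1 were at 0.15, while Glra3 and Glrb remained at 0.86 and Glrb and Gad2 at 0.85. In the spinal cord Glrb was at 0.83 with Glra3, 0.84 with Gad2 and 0.79 with Slc6a5, and −0.63 with Slc6a9. Glra1 stood with Slc6a5 in the midbrain (0.65) and opposite to it in the spinal cord (−0.68). Spinal cord MPTP-SU+T replicate 1, far from its group, had the highest Glra1 of that tissue (83.7 CPM). The spinal cord correlations were computed only with it included. All genes of a library share its depth and its dissected piece, which differed between libraries, and these values are a description. The coding transcripts of Glra3 (35.2% GC), Glrb (40.8%) and Glra2 (41.3%) have a lower GC content than those of Slc6a9 (57%) and Slc32a1 (61.9%), and the part of base composition in these correlations was not tested.

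**Figure D5:**
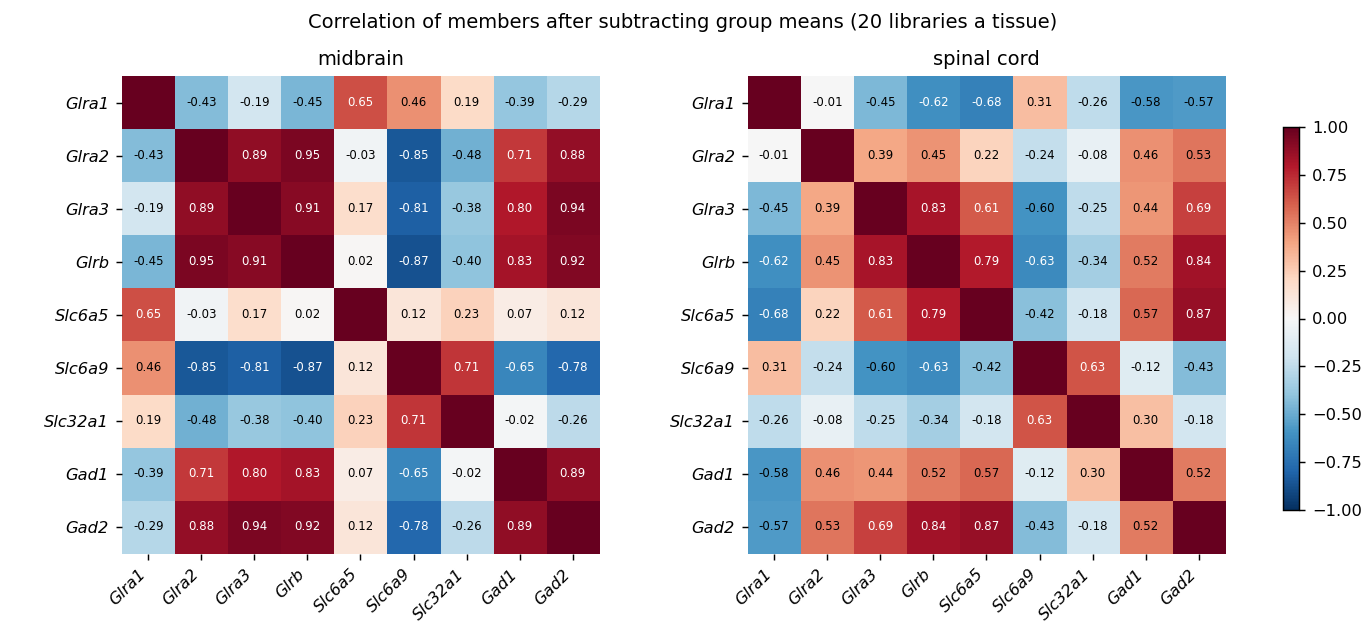
Each cell gives the Pearson correlation of 2 genes over the 20 libraries of the midbrain (left) or spinal cord (right), from log2 CPM after the group means were subtracted, with red for positive and blue for negative values. Glrb and Gad2 stand at 0.92 and 0.84, and Glra1 and Slc6a5 at 0.65 and −0.68.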

How the data were processed

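Polyadenylated RNA of 20 midbrain and 20 spinal cord libraries was prepared with the CORALL RNA-Seq V2 kit. Per the methods, the authors used fastp for trimming, STAR for alignment and Salmon for quantification. The submitters' processing notes also name GATK and the build GRCm39, while versions and annotation are not given in the sources used here. The methods name an Easy-Spin kit for the RNA and the labels RNAiso Plus. The deposited values are estimated counts per gene symbol, given as whole numbers that were used as deposited, with totals of 11958200 to 16639823. The smallest difference between replicates was 2.76 times the sampling variance, so no library was counted as a repeat of another. The authors' own fold changes were not used.

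Genes were filtered with filterByExpr and normalized by TMM in edgeR 4.0.16 (R 4.3.3), per tissue for treatment comparisons (16629 and 16682 genes) and jointly for tissue comparisons and interactions (17426 genes), where all 9 members passed. Each fit held all groups of its libraries, tested by quasi-likelihood. A gene was called at an adjusted p below 0.05 and a fold change above 1.5, and rose or fell only if called. Single genes were also compared by a two-sided exact permutation test on CPM, whose smallest p is 0.0286. Log2 CPM used a prior count of 2. Lengths came from GENCODE M21, a GRCm38 annotation, and since estimated counts are summed over transcripts, levels per kilobase depend on the transcript chosen. The members, lists and alternatives were chosen with earlier results of these data known. All 9 members were named, with up to 3 called genes per list by p-value and the 5 genes most like Slc32a1 and Slc6a5. Alternatives were RLE factors, library size alone, no filter, DESeq2 1.42.0, limma-voom (limma 3.58.1) with sample weights, an adjusted p alone, a replicate block, the 8 libraries of a comparison alone and each library left out. The procedure was tested on simulated data with 200 changed genes. For midbrain MPTP-SU against MPTP-Veh it recovered 56% of 2-fold and 89% of 4-fold changes, with 5 false calls. For the same groups of spinal cord it recovered 84.8% and 97%, with 0 false calls. Between the Con tissues it recovered 63.3% and 91.8%, with 4 false calls. Many 2-fold changes in the midbrain would thus be missed. Counts carry counting error, which at 12 counts, the lowest for a member, is large.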

Additional observations from a re-analysis of the deposited data

Results flagged for a closer look

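In 14 of 90 groups of 4 libraries, 1 value lay far from the others by Dixon's criterion. Chance gives about 1 in 20 for a single group. The 90 groups are 9 correlated genes in the same 40 libraries and not separate trials, so that rate cannot show an excess. In the midbrain, MPTP-Veh replicate 4 was low for Glra2 (9.15 CPM), Glrb (73.0 CPM) and Gad1 (219 CPM); this library also held 15128 CPM of mitochondrially encoded transcripts, and the part of its composition in these values was not tested. MPTP-SU+S replicate 1 was high for Glra1 (30.4 CPM), Slc6a5 (30.5 CPM) and Slc6a9 (193 CPM), the library in which the hindbrain position genes summed to 3.97 CPM, second to MPTP-Veh replicate 4. MPTP-SU replicate 1 was high for Slc6a5 (7.06 CPM) and MPTP-SU replicate 4 low for Gad1 (344 CPM).

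In the spinal cord, MPTP-Veh replicate 1 was low for Glra3 (18.9 CPM) and Glrb (298 CPM), MPTP-SU+T replicate 1 was low for Slc6a5 (343 CPM) and Gad2 (106 CPM), Con replicate 1 was low for Gad1 (131 CPM) and Con replicate 2 high for Gad2 (134 CPM).

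The change of Glra1 differed between the tissues by −1.20 log2 units for MPTP and by 1.07 for SUEHP after MPTP, spinal cord minus midbrain, in tests that share the MPTP-Veh libraries.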

How the results depend on the processing

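Over 2295 values of single genes under the alternatives, 128 changed sign. None of these was in a comparison where that gene was called in the main setting or any alternative. Genes called in 1 comparison did change sign in others, as Glra1 in midbrain MPTP-SU against Con (−0.18 to 0.15). The 6 calls between the Con tissues held under each alternative, except that DESeq2 gave Slc6a5 no adjusted p. Among members called, midbrain MPTP-Veh against Con went from 0 to 1 with DESeq2 (0 to 1 with single libraries left out). Midbrain MPTP-SU against MPTP-Veh went from 2 to 1 on library size alone, without the low-count filter and with limma-voom, and to 0 with 8 libraries alone (0 to 3 with single libraries left out). Midbrain MPTP-SU against Con went from 0 to 1 with limma-voom. The MPTP difference between tissues went from 1 to 0 on library size alone, without the filter and with the replicate block (0 to 1 with single libraries left out), and the SUEHP difference from 1 to 2 with RLE factors and limma-voom, 3 with DESeq2 and 0 without the filter (0 to 3 with single libraries left out). The cause was not tested. Members not overlapping on library size alone numbered 1 rather than 2 for midbrain MPTP-SU against MPTP-Veh, 0 rather than 1 for MPTP-SU against Con, 2 rather than 0 for spinal cord MPTP-SU against Con and 1 rather than 3 for MPTP-SU+T against MPTP-SU. Between the tissues, 6 rather than 3 did not overlap without midbrain MPTP-Veh replicate 4. Library size alone moved midbrain MPTP-SU against Con by −0.12 log2 units in the median member.

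Over all genes, the number called was 3 for midbrain MPTP-Veh against Con (0 to 446 under other settings, 0 to 985 with single libraries left out), 2206 for MPTP-SU against MPTP-Veh (0 to 2757, 548 to 3525) and 121 for MPTP-SU against Con (63 to 936, 9 to 86). It was 413 for the MPTP difference between tissues (1 to 1361, 1 to 2726) and 2113 for the SUEHP difference (955 to 2630, 675 to 3774). The spinal cord comparisons stayed between 0 and 51 in each setting.

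No source states that same-numbered libraries, of one tissue or of both, share an animal. The correlation of same-numbered deviations ran from −0.108 to 0.286 within tissues and from −0.151 to 0.304 between them, above 0.1 for every pair in no comparison, so the numbers were not used as pairs. As a hint from the data, between tissues the same-numbered library was the closest match for 4 of 4 numbers in MPTP-SU+S and MPTP-SU+T, 3 in MPTP-SU, 1 in MPTP-Veh and 0 in Con. With the replicate block, Glra3 passed in midbrain MPTP-SU against MPTP-Veh (1.00, adjusted p = 0.0458) and did not pass between the tissues over 5 groups (−0.54), and the MPTP difference of Glra1 was −1.14 (adjusted p = 0.0704). Midbrain Slc6a5, at 12 to 445 counts, varied widely between libraries of a group. Con replicates 1 to 4 held 241, 38, 26 and 257 counts of it, at library totals of 15020767 to 16295834. The cause of that spread was not tested.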
